A study of Homo sapiens with 20 samples.

Results

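The 10 genes of the WNT5A signaling axis examined in orthotopic ovarian tumors were chosen by symbol, and all were present among the 24196 genes listed. They are the ligands WNT5A and WNT5B, the receptors ROR1, ROR2 and RYK, the Frizzled receptors FZD2, FZD6 and FZD7, and the secreted antagonists SFRP1 and DKK1. The tumors grew from OVCAR8, a human high-grade serous ovarian cancer cell line, in NSG mice, a strain that lacks T, B and natural killer cells but keeps its own fibroblasts, endothelium and macrophages. Poly(A) RNA of 4 tumors from mice given PBS, the vehicle, was compared with that of 4 tumors from mice given gluconate, and all 8 tumors carried the same cell line. The study's efficacy protocol gave 1 mg/kg sodium gluconate or PBS i.p. once a week for 35 days. Injection was orthotopic, at 6 weeks of age. In the study, the imaged tumors of both arms are named OVCAR8-sgNC-luc, the control cells. The labels do not give the dose, the clone or which mouse each tumor came from, so p-values measure the spread between these libraries.

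WNT5A is a secreted lipid-modified protein that mostly signals without beta-catenin. It binds Frizzleds together with ROR1, ROR2 or RYK, and Dishevelled then acts on small GTPases, the cytoskeleton and cell polarity; WNT5B is its closest relative. SFRP1 binds WNT proteins outside the cell, and DKK1 occupies the LRP5 and LRP6 co-receptors of the beta-catenin branch. In ovarian cancer this axis is known for its part in invasion and peritoneal spread.

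WNT5A was also a target of the study's RT-qPCR, and its primers show which piece of the transcript that assay reads beside the whole-gene RNA-seq values. The product lies on GRCh38 at chr3:55470482-55474390 on the minus strand. It spans exons 4 and 5 of WNT5A-201, and all 123 of its bases are coding. Of the 7 WNT5A transcripts in GENCODE 29, 3 hold both primers, and no transcript of another gene does. The primers are in capitals as they lie in the product, so the second stretch is the reverse complement of the reverse primer.
WNT5A forward primer: TACGAGAGTGCTCGCATCCTCA
WNT5A reverse primer: TGTCTTCAGGCTACATGAGCCG
WNT5A amplicon: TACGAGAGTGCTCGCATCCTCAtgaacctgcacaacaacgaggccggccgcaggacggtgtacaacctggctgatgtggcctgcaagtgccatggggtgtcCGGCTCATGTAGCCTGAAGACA

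Values are FPKM, in which the fragments of a gene are set against its length and the depth of the library. PBS replicate 4 stood apart. Its FPKM rested on 3953206 fragments against 39325749 to 46551535 in the other 7 libraries, and its correlation with them over genes was 0.938 to 0.951 against at least 0.98 among the others. The members' fold changes are therefore given with and without it. Printed fold changes of other genes are given both ways where leaving it out turned the direction or moved the value by over 1.5 times. Carcinoma markers were high in all 8 libraries, with KRT8 between 700 and 1051 FPKM and PAX8 between 32.4 and 50.7 FPKM, whereas MUC16 was at most 0.00168 FPKM. The 6 endothelial markers summed to 0.257 to 0.707 FPKM. The 6 myeloid markers summed to 25.9 to 28.95 FPKM in PBS and 20.8 to 28.0 FPKM in gluconate tumors, nearly all CD68, with PTPRC at most 0.0165 FPKM. The 11 fibroblast markers summed to 207 FPKM in PBS replicate 4, to 348 to 434 FPKM in the other PBS tumors and to 388 to 524 FPKM in gluconate tumors. COL1A1 and SPARC made up most of that sum, while COL1A2 stayed at or below 0.0678 FPKM and was at 0 in PBS replicate 4. In bulk tumors, fewer cells of a type and less RNA per cell cannot be told apart. With limma on log2(FPKM + 0.1), 577 of 12486 genes had an unadjusted p under 0.05, and 67.8% of them were higher in gluconate tumors. That share was 51.3% to 56.7% with 3 other scalings and 45.7% without PBS replicate 4. No gene had an adjusted p under 0.05 (Benjamini-Hochberg, limma), nor did any with voom, where 593 genes had an unadjusted p under 0.05.

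The axis covered a wide range of levels. DKK1 was highest with a mean of 40.5 FPKM over the 8 libraries, followed by RYK with 30.4 FPKM, FZD6 with 21.6 FPKM, WNT5B with 10.9 FPKM, FZD2 with 10.8 FPKM, FZD7 with 7.56 FPKM, WNT5A with 1.40 FPKM, SFRP1 with 0.718 FPKM, ROR2 with 0.281 FPKM and ROR1 with 0.0813 FPKM. In FPKM, DKK1 was above RYK, RYK above FZD6 and FZD6 above WNT5B in every library. WNT5B and FZD2 exchanged places, with WNT5B higher in 4 of 8 libraries, and SFRP1 and ROR2 likewise in 4 of 8. With the longest GENCODE 29 transcript of each gene as the length, the order changed. DKK1 stayed highest at a mean of 40.9, but FZD6 at 21.7, FZD2 at 19.4 and WNT5B at 18.4 were then above RYK at 17.7, so the place of RYK depends on the length used. On the FPKM scale, SFRP1 was above WNT5A in PBS replicate 4 and below it in the other 7 libraries, and WNT5B was below both FZD2 and FZD7 in PBS replicate 3.

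**Figure D1:**
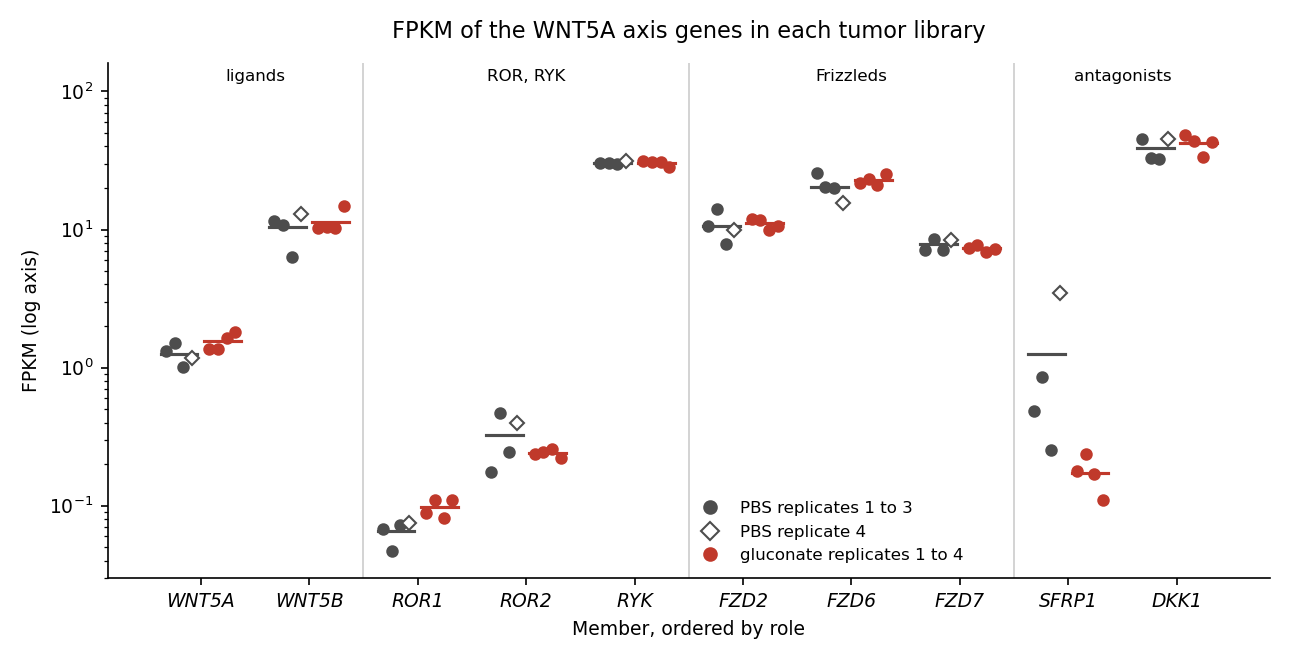
FPKM on a log axis for each member in each library, with short bars at the group means; grey circles are PBS replicates 1 to 3, the open diamond PBS replicate 4 and red circles gluconate tumors. SFRP1 spans 0.110 to 3.46 FPKM with all gluconate tumors below all PBS tumors, and RYK stays between 28.3 and 31.5 FPKM.

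Only 8 members passed the filter for the fit, a mean of at least 0.5 FPKM, since ROR1 and ROR2 lie below it. SFRP1 passed only through PBS replicate 4, without which its mean was 0.327 FPKM. Of these 8, 1 member, SFRP1, had an unadjusted p under 0.05, against a background of 4.62% of all genes tested, and 5 members had a fold change above 0 and 3 below. The median log2 fold change of the 8 was 0.105, against 0.069 for all genes tested, and 0.064 against -0.0033 without PBS replicate 4. Without PBS replicate 4, and with the genes tested kept the same, SFRP1 was again the 1 member of 8, against 6.18% of all genes, but since that library brought it into the fit this adds no support. The groups did not overlap for 2 of the 10 members, SFRP1 and ROR1, with or without PBS replicate 4. Over all genes listed this held for 2.86% with all 8 libraries and for 4.92% without PBS replicate 4.

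Both WNT5 ligands were detected, WNT5B at a higher level than WNT5A. WNT5A (chr3:55465715-55505263, GRCh38.p14, minus strand) was at 1.32, 1.5, 1.02 and 1.17 FPKM in PBS replicates 1 to 4 and at 1.37, 1.37, 1.64 and 1.80 FPKM in gluconate replicates 1 to 4. The top 2 values were gluconate tumors and the lowest 3 were PBS tumors, but PBS replicate 2 was above 2 of the gluconate tumors. The means were 1.25 ± 0.21 (SD, n = 4) and 1.55 ± 0.21 FPKM (SD, n = 4). The log2 fold change of FPKM + 0.1 was 0.29 (SE 0.17, 95% interval -0.095 to 0.67, limma p = 0.124, adjusted p = 0.74, exact permutation p = 0.114), which did not pass the test. It was 0.26 without PBS replicate 4, where WNT5A had 68 fragments and a 95% Poisson interval, for counting error only, of 0.907 to 1.48 FPKM.

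WNT5B (chr12:1617056-1647212, plus strand) was at 11.5, 10.8, 6.33 and 13.0 FPKM in the PBS tumors and at 10.2, 10.5, 10.2 and 14.8 FPKM in the gluconate tumors. PBS replicate 3 was the low value and gluconate replicate 4 the high one, and the groups overlapped. Its log2 fold change was 0.16 (SE 0.22, 95% interval -0.33 to 0.66, adjusted p = 0.807, exact permutation p = 0.657). It was 0.29 without PBS replicate 4 and -0.056 without PBS replicate 3, so its direction depends on 1 library. WNT5B exceeded WNT5A in every library by 6.21 to 11.1 times in FPKM. The length behind the FPKM of WNT5A, recovered from the values, was 14721 bases, while its longest GENCODE 29 transcript has 6176 bases. With the longest transcript of each gene as the length, WNT5B exceeded WNT5A by 4.39 to 7.85 times. In fragments, with no length applied, it was by 1.6 to 2.9 times, so the size of the ratio depends on the lengths used.

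These shares and ranks hold for FPKM, with the long length of WNT5A. Of the summed FPKM of the 19 WNT ligands, WNT5B made up 44.7% ± 9.0 (SD, n = 4) in PBS and 44.3% ± 2.5 (SD, n = 4) in gluconate tumors. WNT5A made up 5.45% ± 0.55 (SD, n = 4) and 6.05% ± 0.63 (SD, n = 4). The share of WNT5B was highest, 55.6%, in PBS replicate 4, the library with the lowest share of WNT3, a ligand of the beta-catenin branch, at 14.2% against 28.4% to 43.9% in the other 7 libraries. PBS replicate 3 had the lowest WNT5B share, 33.5%, and the highest WNT3 share. WNT9A, the next ligand after WNT5B and WNT3 on the FPKM scale, was at 1.90 ± 0.36 FPKM (SD, n = 4) in PBS and 2.44 ± 0.58 FPKM (SD, n = 4) in gluconate tumors. WNT11, which like WNT5A mostly signals without beta-catenin, held 1.24% to 3.88% of the sum.

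Among the noncanonical WNT receptors, RYK carried nearly all the RNA and both ROR genes were scarce. RYK (chr3:134157133-134250859, minus strand), a transmembrane protein with a WNT-binding domain and a kinase domain that lacks activity, was at 30.3, 30.4, 29.9 and 31.5 FPKM in PBS and 31.4, 31.0, 30.7 and 28.3 FPKM in gluconate tumors. It was the steadiest member, with a coefficient of variation of 2.26% in PBS and 4.53% in gluconate tumors. Gluconate and PBS tumors differed by a log2 fold change of -0.0098 (95% interval -0.16 to 0.14, adjusted p = 0.963, exact permutation p = 0.857), and the sign turned without PBS replicate 4 or gluconate replicate 4. RYK held 98.3% to 99.2% of the summed FPKM of RYK, ROR1 and ROR2.

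ROR1 (chr1:63774017-64181498, plus strand), a receptor of WNT5A that is better known from embryonic and cancer cells, was at 0.0676, 0.047, 0.0723 and 0.0755 FPKM in PBS and at 0.0887, 0.109, 0.0809 and 0.109 FPKM in gluconate tumors. All gluconate tumors were above all PBS tumors, but the values were small and the counting intervals of the groups overlapped. They rested on 31, 22, 29 and 3 fragments in PBS and 36, 47, 32 and 47 fragments in gluconate tumors. In PBS replicate 4 the 3 fragments allow 0.0156 to 0.220 FPKM. On the log2(FPKM + 0.1) scale the means differed by 0.25, with a two-sided exact permutation p of 0.0286, the smallest that 4 against 4 can give. At this low level the size depends on the pseudocount, with 0.042 at a pseudocount of 1 and 0.51 at 0.01, and the gluconate mean was 1.48 times the PBS mean in FPKM. In limma without the filter, the p was 0.0577 (adjusted p = 0.802), and 1 of 10 members, SFRP1, was under 0.05 against 4.25% of all genes. Without PBS replicate 4 as well, ROR1 had a log2 fold change of 0.28 and a limma p of 0.0413 (adjusted p = 0.881), and 2 of 10 members were under 0.05 against 4.87% of all genes.

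ROR2 (chr9:91722601-91950228, minus strand), the other WNT5A receptor of this family, was at 0.176, 0.472, 0.244 and 0.399 FPKM in PBS and at 0.235, 0.246, 0.258 and 0.222 FPKM in gluconate tumors. The gluconate tumors lay close together inside the range of the PBS tumors. PBS replicate 2 was the high library, with 167 fragments and an interval of 0.403 to 0.549 FPKM. On the log2(FPKM + 0.1) scale the gluconate mean less the PBS mean was -0.26 (exact permutation p = 0.371), -0.16 without PBS replicate 4 and -0.088 at a pseudocount of 1. ROR2 was above ROR1 in every library, by 2.03 to 10.1 times in FPKM.

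**Figure D2:**
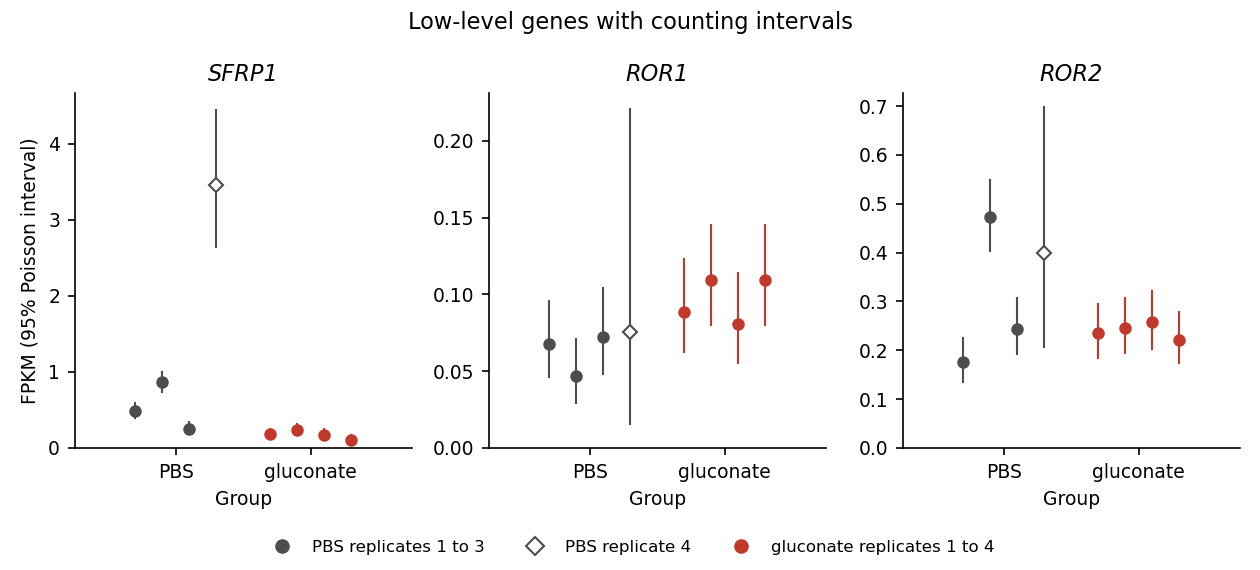
FPKM of SFRP1, ROR1 and ROR2 in each library, with bars for the 95% Poisson interval of the recovered fragments; each panel has its own axis from 0. PBS replicate 4 (open diamond) has SFRP1 at 3.46 FPKM with an interval of 2.64 to 4.44, and its ROR1 interval, from 3 fragments, covers the values of all other libraries.

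The 3 Frizzled members supplied most of the Frizzled RNA, and none of them passed the test between groups. Together they held 74.1% to 78.2% of the summed FPKM of the 9 Frizzled genes listed. FZD6 held 39.9% ± 5.0 (SD, n = 4) in PBS and 41.4% ± 1.5 (SD, n = 4) in gluconate tumors, and FZD2 20.7% ± 3.5 (SD, n = 4) and 20.1% ± 1.5 (SD, n = 4). FZD4, the highest of the other Frizzleds, was at 4.97 ± 1.61 FPKM (SD, n = 4) and 6.31 ± 1.16 FPKM (SD, n = 4).

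FZD6 (chr8:103298494-103332866, plus strand), a Frizzled with a role in planar polarity, was at 25.6, 20.4, 20.0 and 15.5 FPKM in PBS and 21.8, 23.2, 21.0 and 25.4 FPKM in gluconate tumors. PBS replicate 4 was lowest and PBS replicate 1 highest of all 8, so the PBS tumors enclosed the gluconate tumors. Its log2 fold change was 0.18 (SE 0.14, 95% interval -0.13 to 0.50, adjusted p = 0.74, exact permutation p = 0.314). Without PBS replicate 1 it was 0.30 with a limma p of 0.0354 (adjusted p = 0.505), in a fit where 9.72% of all genes were under 0.05, and without PBS replicate 4 it was 0.061.

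FZD2 (chr17:44557484-44561262, plus strand), a WNT5A receptor linked to epithelial-mesenchymal transition, was at 10.6, 14.0, 7.89 and 9.91 FPKM in PBS and 11.9, 11.8, 9.97 and 10.7 FPKM in gluconate tumors. Its highest and lowest values were both PBS tumors, and the log2 fold change was 0.088 (95% interval -0.27 to 0.45, adjusted p = 0.852, exact permutation p = 0.6). It was 0.066 without PBS replicate 4 and turned to -0.043 without PBS replicate 3. FZD7 (chr2:202033855-202038441, plus strand), a receptor of the beta-catenin branch as well, was at 7.15, 8.57, 7.15 and 8.44 FPKM in PBS and 7.30, 7.78, 6.89 and 7.21 FPKM in gluconate tumors. The top 2 values were PBS tumors, the groups overlapped, and the log2 fold change was -0.096 (95% interval -0.32 to 0.12, adjusted p = 0.767, exact permutation p = 0.314). It was -0.059 without PBS replicate 4. FZD2 was above FZD7 in each of the 8 libraries.

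**Figure D3:**
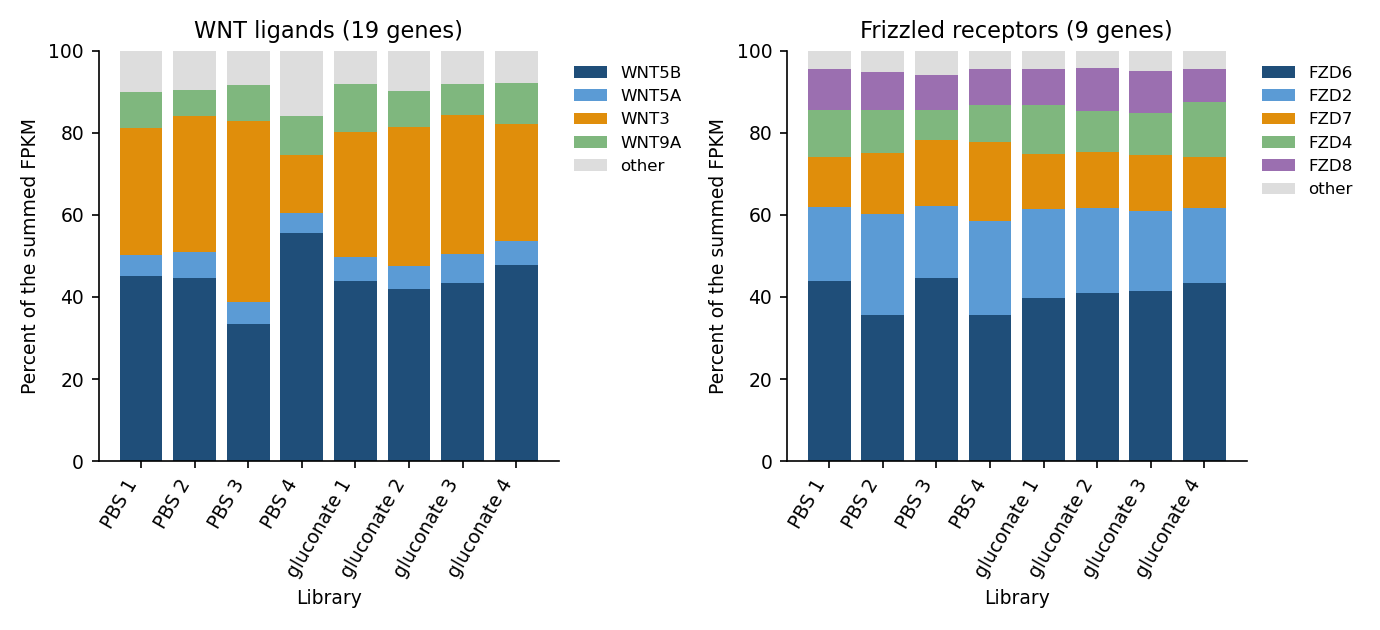
Share of the summed FPKM of 19 WNT ligands (left) and 9 Frizzled receptors (right) in each library, in percent, with the genes not named drawn as other. WNT5B is 55.6% of the ligand sum in PBS replicate 4 and 33.5% in PBS replicate 3, and FZD6, FZD2 and FZD7 stay at 74.1% to 78.2% of the Frizzled sum.

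The antagonists differed from each other by level and by pattern. SFRP1 (chr8:41261962-41309473, minus strand), which carries a Frizzled-like domain and sequesters WNT ligands, was at 0.481, 0.861, 0.253 and 3.46 FPKM in PBS and at 0.178, 0.236, 0.171 and 0.110 FPKM in gluconate tumors. Every PBS tumor was above every gluconate tumor, and PBS replicate 4 was 4.01 times the next highest library. The smallest gap, between PBS replicate 3 and gluconate replicate 2, was within counting error, with intervals of 0.184 to 0.338 FPKM and 0.172 to 0.315 FPKM. The values rested on 98, 179, 45 and 61 fragments in PBS and 32, 45, 30 and 21 fragments in gluconate tumors.

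The mean of SFRP1 was 1.26 ± 1.48 FPKM (SD, n = 4) in PBS and 0.174 ± 0.051 FPKM (SD, n = 4) in gluconate tumors, 7.28 times higher in PBS. Without PBS replicate 4 the PBS mean was 0.532 ± 0.308 FPKM (SD, n = 3), 3.06 times the gluconate mean. In limma the log2 fold change of FPKM + 0.1 was -1.76 (SE 0.62, 95% interval -3.15 to -0.37, p = 0.0183, adjusted p = 0.74, exact permutation p = 0.0286). Without PBS replicate 4 it was -1.11 (SE 0.36, p = 0.0118, adjusted p = 0.802, exact permutation p = 0.0571). These permutation p-values are the smallest possible with 4 against 4 and with 3 against 4. In the fit without the filter, in which SFRP1 needs no library to enter, it was lower at an unadjusted p too (p = 0.0245, adjusted p = 0.802, with the exact permutation p unchanged at 0.0286), and without PBS replicate 4 as well (p = 0.014, adjusted p = 0.881, exact permutation p again 0.0571). No fit gave it an adjusted p under the threshold. PBS replicate 4 also had the highest WT1, a marker of ovarian carcinoma and mesothelium, at 6.58 FPKM against 1.07 to 1.82 FPKM, and the lowest COL1A1, at 41.4 FPKM against 121 to 182 FPKM. Their part in the SFRP1 difference was not tested.

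DKK1 (chr10:52314281-52317657, plus strand) was at 45.0, 33.0, 32.5 and 45.0 FPKM in PBS and 48.5, 43.8, 33.6 and 42.9 FPKM in gluconate tumors. A low and a high level occurred in both groups, with PBS replicates 2 and 3 and gluconate replicate 3 near 33 FPKM and the other 5 libraries at 42.9 FPKM or above. Between the groups its log2 fold change was 0.12 (95% interval -0.21 to 0.46, adjusted p = 0.793, exact permutation p = 0.543). It was 0.20 without PBS replicate 4. DKK1 held 15.2% to 29.5% of the summed FPKM of the 8 SFRP and DKK family genes listed, and DKK3, a divergent family member, held 68.1% to 84.7%. SFRP1 held 2.27% of this sum in PBS replicate 4 and at most 0.424% in the other libraries. The remaining secreted Frizzled-related genes, SFRP2, FRZB and SFRP4, were each at most 0.281% of it.

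**Figure D4:**
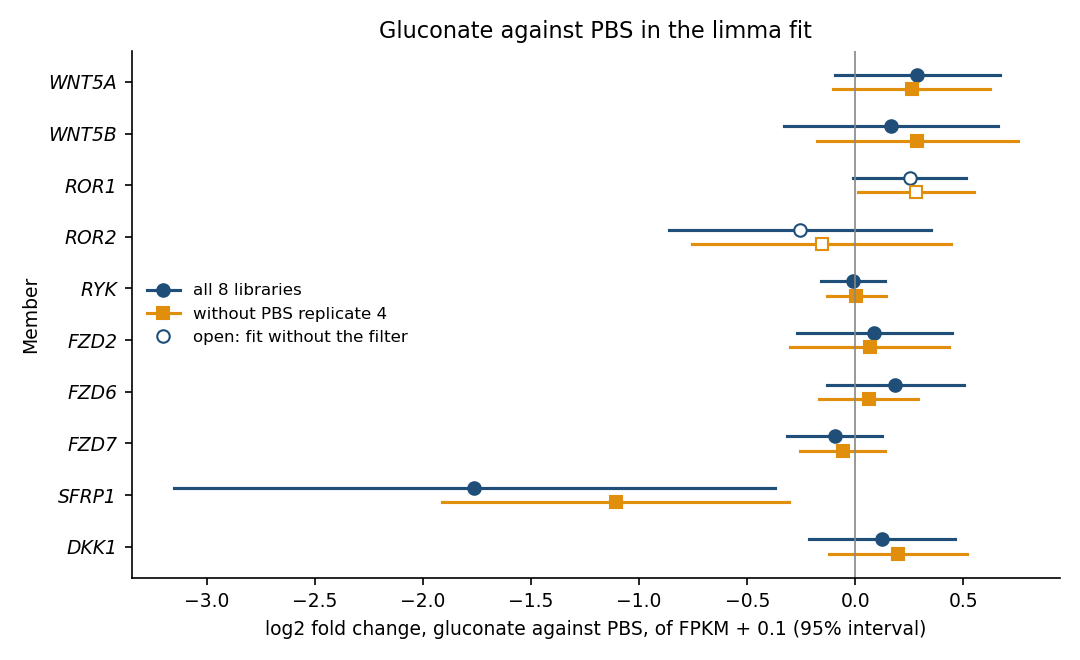
The log2 fold change of FPKM + 0.1, gluconate against PBS, with its 95% interval for each member, from all 8 libraries (circles) and without PBS replicate 4 (squares); open symbols are the fit without the filter. The SFRP1 interval from all 8 libraries, -3.15 to -0.37, lies below 0, and those of the other 7 members that passed the filter cross 0. The ROR1 interval without the filter and without PBS replicate 4, 0.014 to 0.55, lies above 0.

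The rest of the pathway gave few differences. Of 115 genes in 9 lists of ligands, receptors, cofactors, antagonists and mediators, 110 were listed and 72 passed the filter. At an unadjusted p under 0.05, 1 was higher and 2 were lower in gluconate tumors, 4.17% of the 72 beside 4.62% of all genes. The median log2 fold change of the 72 was 0.071, beside 0.069 for all genes, and both were close to 0 without PBS replicate 4, at -0.008 and -0.0033. CTHRC1, a secreted protein that helps WNT5A bind Frizzled and ROR2, was higher in gluconate tumors, at 27.1 ± 3.5 FPKM (SD, n = 4) against 18.2 ± 4.2 FPKM (SD, n = 4), or by 0.59 on the log2 scale of FPKM + 0.1 (SE 0.16, limma adjusted p = 0.74). It was 0.51 without PBS replicate 4. LRP6, the co-receptor that DKK1 occupies, was lower, at 5.21 ± 0.44 FPKM (SD, n = 4) against 7.53 ± 2.7 FPKM (SD, n = 4). Its log2 fold change of -0.47 (adjusted p = 0.74) rested in part on PBS replicate 4, at 11.55 FPKM, without which it was -0.24. DVL1, a Dishevelled protein downstream of Frizzled, was lower, at 23.1 ± 0.8 FPKM (SD, n = 4) against 27.3 ± 3.1 FPKM (SD, n = 4), or -0.24 on that scale (adjusted p = 0.74).

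The 7 co-receptors and WNT5A cofactors held both CTHRC1 and LRP6, and their highest gene was MCAM, a WNT5A-binding adhesion protein, at 36.0 ± 7.0 FPKM (SD, n = 4) in PBS and 43.5 ± 4.4 FPKM (SD, n = 4) in gluconate tumors. MCAM was at 25.6 FPKM in PBS replicate 4, and its log2 fold change went from 0.29 to 0.14 without that library. GPC6, the glypican that the study places beside WNT5A, was at 0.642 to 1.40 FPKM in PBS and 0.681 to 0.998 FPKM in gluconate tumors, and its log2 fold change was -0.064 (adjusted p = 0.934), which turned to 0.13 without PBS replicate 4. DVL1 was the 1 gene of 29 tested among the polarity and beta-catenin-independent mediators. None of the 5 other WNT ligands, 2 secretion genes, 4 other Frizzleds, 3 turnover genes, 5 other antagonists, 11 genes of the beta-catenin machinery and 6 beta-catenin target genes tested had an unadjusted p under 0.05. WLS, which carries WNT proteins to the cell surface, was at 42.5 ± 8.6 FPKM (SD, n = 4) and 34.6 ± 3.3 FPKM (SD, n = 4), and its log2 fold change was -0.28 (adjusted p = 0.74). CTNNB1 itself, beta-catenin, was at 86.8 ± 9.4 FPKM (SD, n = 4) and 82.3 ± 5.2 FPKM (SD, n = 4). Its log2 fold change was -0.074, and -0.0076 when PBS replicate 4 was left out. Without PBS replicate 4, 1 gene was higher and 3 were lower, the third being BCL9L, a beta-catenin cofactor, with a log2 fold change of -0.26, against -0.11 with all 8 libraries. These 4 are 5.56% of the 72, beside 6.18% of all genes.

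The other genes of these lists with the lowest p in a direction did not pass the test, and their log2 fold changes of FPKM + 0.1 are given as values. Among ligands and secretion genes, WNT9A was at 0.34, WNT10B at -0.45 (-0.19 without PBS replicate 4) and PORCN, the acyltransferase that lipid-modifies WNT proteins, at 0.15. FZD4 was at 0.38, and KREMEN1, a receptor for DKK proteins, at 0.33 (0.12 without PBS replicate 4). The turnover genes ZNRF3, a ubiquitin ligase that removes Frizzleds, and LGR4, a receptor for R-spondins, were at 0.014 and -0.33, and ZNRF3 turned to -0.072 without PBS replicate 4. Most of the RNA of that list came from RSPO4, an R-spondin, at 11.4 ± 1.5 FPKM (SD, n = 4) in PBS and 11.2 ± 0.6 FPKM (SD, n = 4) in gluconate tumors. Downstream of the receptors, DAAM1, a formin bound by Dishevelled, was at 0.40 (0.19 without PBS replicate 4), and RHOA, the small GTPase, was the most abundant mediator with 368 ± 44 FPKM (SD, n = 4) and 370 ± 12 FPKM (SD, n = 4). In the beta-catenin branch, the transcription factors TCF7L1 and TCF7L2 were at 0.43 and -0.37, and the target genes SP5 and CCND1 at 0.65 and -0.077. Without PBS replicate 4, where SP5 was at 0.158 FPKM, these were 0.12 for TCF7L1, -0.16 for TCF7L2, 0.11 for SP5 and -0.11 for CCND1. CCND1, cyclin D1, was at 114 ± 8.8 FPKM (SD, n = 4) and 108 ± 10 FPKM (SD, n = 4). Of the 16 marker genes tested, KRT7 and SPARC were higher in gluconate tumors at an unadjusted p under 0.05, 12.5% beside 4.62% of all genes, with log2 fold changes of 0.73 and 0.45 (limma adjusted p = 0.74 for each) and of 0.48 and 0.33 without PBS replicate 4. KRT7 comes from a carcinoma list in which 4 tested genes had a fold change above 0 and 3, KRT8, KRT18 and WT1, below, with a median of 0.064. EPCAM turned from 0.064 to -0.15 without PBS replicate 4, which gave 3 above and 4 below and a median of -0.14. With all 8 libraries the 7 tested fibroblast markers had a fold change above 0, with a median of 0.495. The median was 0.204 without PBS replicate 4, and COL3A1, a collagen chain, turned from 0.495 to -0.037. The part of these markers in the results on the WNT5A axis was not tested.

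**Figure D5:**
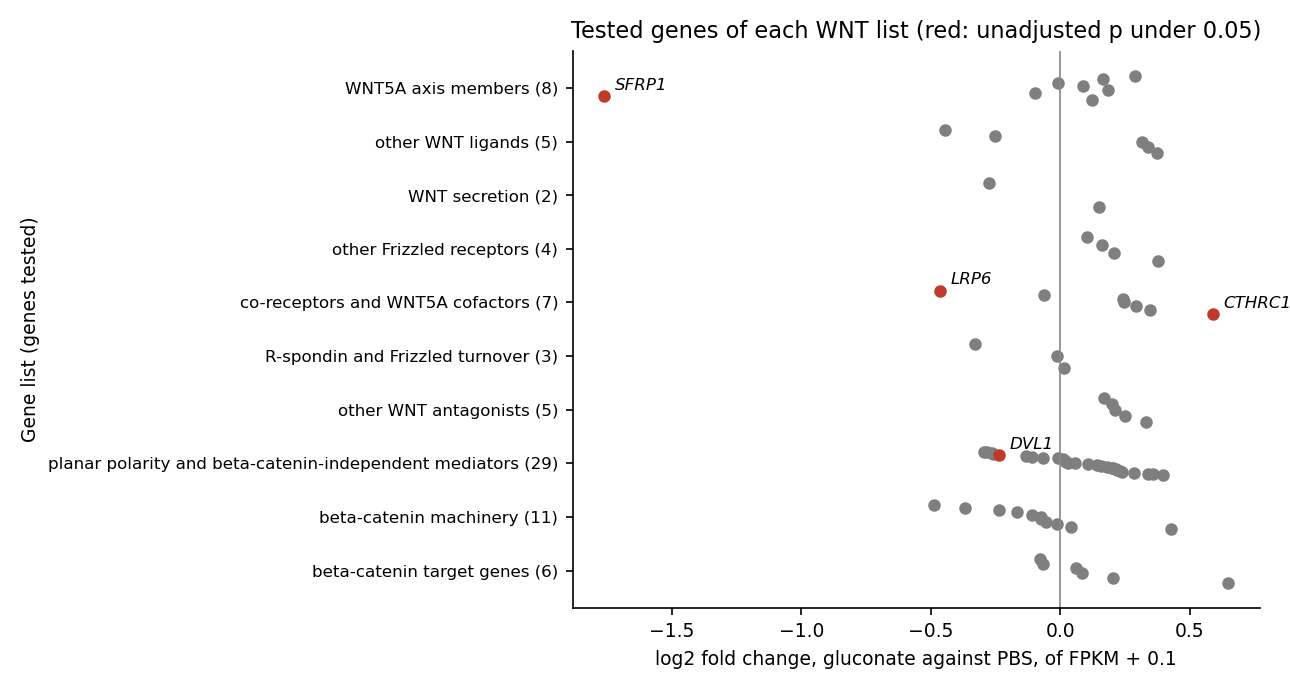
The log2 fold change of FPKM + 0.1, gluconate against PBS, for each tested gene of the axis and of the 9 other WNT lists, with the number tested in brackets; red points had an unadjusted p under 0.05. SFRP1 at -1.76 lies farthest from 0, and CTHRC1 at 0.59, LRP6 at -0.47 and DVL1 at -0.24 are the other red points.

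The pattern of WNT5A over libraries was compared with that of all genes that passed the filter, leaving out PBS replicate 4 and so over 7 libraries. The highest Pearson correlations on log2(FPKM + 0.1) were those of TLE5 (0.989) and LBX2 (0.986) among the genes reported, and the lowest those of EEF1A1 (-0.984), RBBP8 (-0.98) and WDR12 (-0.979). Such extremes are given as a description of 7 libraries from among 12486 genes, which share library depth and composition. With PBS replicate 4 included, TLE5 stayed at 0.989, whereas WDR12 came to -0.29. Among the members, WNT5B was most like WNT5A, at 0.878 over 7 libraries and 0.65 over 8, followed by FZD2 at 0.512. SFRP1 was at -0.23 and RYK at -0.31.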

How the data were processed

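RNA of 8 tumors was analysed, and 12 further samples of the series, OVCAR8 cells with knockouts and their controls, were not analysed here. The authors deposited FPKM values by gene symbol, and the submitters' processing notes name GRCh38. The aligner, the counting, the use of strand and the handling of mouse reads are not given in the sources used here, so mouse fragments that match human genes may be counted. The columns named C were read as PBS and those named T as gluconate, as the study labels its plot of the comparison and since no other groups have 4 samples. The study's caption for that plot calls the samples OVCAR8 cells, while the sample titles call them orthotopic tumors.

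The FPKM values of all 24196 genes were whole multiples of 1 fragment (tolerance 0.01 fragments), which gave fragments and depth. Groups were compared with limma 3.58.1 in R 4.3.3 on log2(FPKM + 0.1) with a trend, over 12486 genes with a mean of at least 0.5 FPKM, with Benjamini-Hochberg adjustment. Single genes were compared by the two-sided exact permutation test. A fold change on this scale understates that of low genes. Scripts were tested on simulated data.

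The members and lists were chosen with earlier results of these data known. The genes named are all members, the most abundant gene and the lowest p in each direction of each WNT list, and the 3 highest and 3 lowest correlations with WNT5A, of which 1 is not reported here; WNT11, BCL9L, GPC6 and the marker genes were named after their values were seen. Positions are from RefSeq on GRCh38.p14, and transcripts from GENCODE 29. In GENCODE 29, exons of FZD6 share 138 bases with BAALC-AS1 and those of DKK1 212 bases with PRKG1-AS1 on the other strand, both at most 0.156 FPKM. Alternatives were pseudocounts of 1 and 0.01, no filter, a mean of at least 1 FPKM, quantile normalization, median-ratio scaling, voom on the fragments, a block for the replicate number, and fits with 1 library left out.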

Additional observations from a re-analysis of the deposited data

Results flagged for a closer look

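WNT5B in gluconate replicate 4, at 14.8 FPKM, stood far above the other 3 gluconate tumors, which lay between 10.2 and 10.5 FPKM. The gap was 0.939 of the range of the group, over Dixon's critical value for 4 samples. It was the 1 such value among 20 groups of 4 examined (10 members in each group), and chance gives about 1 in 20.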

How the results depend on the processing

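SFRP1 kept its direction in every alternative in which it was fitted, with a limma p of 0.00406 to 0.0473. Except in the fit without the filter, SFRP1 entered these only through PBS replicate 4, so the range adds no support. At a pseudocount of 1 its log2 fold change was -0.76 and at 0.01 it was -2.15, and leaving out each library gave -2.22 to -1.11. With a mean of at least 1 FPKM it was not fitted, and the count of members at an unadjusted p under 0.05 was 0. That count was 1 to 2 on leaving out each library, the 2 without PBS replicate 1, where FZD6 joined and 9.72% of all genes were under 0.05 against 4.62% with all libraries. Leaving out each library gave a log2 fold change of 0.061 to 0.30 for FZD6, -0.056 to 0.29 for WNT5B, -0.026 to 0.023 for RYK and -0.043 to 0.23 for FZD2. The other 3 members kept their direction, with 0.20 to 0.37 for WNT5A, -0.14 to -0.051 for FZD7 and 0.044 to 0.23 for DKK1. Median-ratio scaling kept each direction but moved the log2 fold change by over 1.5 times for DKK1 (0.055), FZD2 (0.021), FZD7 (-0.16), WNT5B (0.097), FZD6 (0.12) and RYK (-0.078). So did quantile normalization for WNT5A (0.19), FZD2 (0.049) and RYK (-0.04), voom for FZD6 (0.11) and RYK (-0.00095), and a pseudocount of 1 for WNT5A (0.18).

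In the exact test without PBS replicate 4 the differences were 0.28 for ROR1, -1.11 for SFRP1 and 0.0053 for RYK, and 3 against 4 cannot give a p under 0.0571. The fit without both the filter and PBS replicate 4, whose values for ROR1 and SFRP1 are given above, was added after seeing the data. Genes at an unadjusted p under 0.05 numbered 577, 1028 with no filter, where more genes were tested, and 267 to 1214 on leaving out each library (267 without gluconate replicate 4, 289 without gluconate replicate 3, 873 without PBS replicate 2 and 1214 without PBS replicate 1). No setting gave a gene with an adjusted p under 0.05.

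With a replicate block, 470 genes had an unadjusted p under 0.05 and SFRP1 had a p of 0.0251. Same-numbered samples deviated with correlations of -0.178 to 0.165. The labels do not state a pairing, and these correlations cannot decide whether same-numbered samples share more than a number. Depth limits ROR1 and ROR2 in PBS replicate 4, with 3 and 12 fragments.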
